A study of Homo sapiens with 12 samples.

Results

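Unselected HTB56 cells were compared with unselected A549 cells by mRNA level, using the 6 of 12 arrays of the study that were made from lines that had gone through 0 rounds of in vivo selection. Members were taken from the labels for cell line and selection rounds, which give 3 arrays of A549 (here A0R, replicates 1 to 3) and 3 arrays of HTB56 (here H0R, replicates 1 to 3). The other 6 arrays come from the same lines after 3 rounds of selection in mice for growth of tumour nodules in the lung (A3R and H3R). All 4 groups carry the label untreated for 5-azacytidine, a drug that inhibits DNA methylation. Some descriptions in the labels write A459, whereas the cell line field of the same samples gives A549. The labels name no clone and do not say whether replicates were separate cultures, so every p-value measures the spread between these samples, which may be technical. The comparison asks how the parental lines differ before any selection.

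A549 is an established human lung adenocarcinoma line that is used as a model of alveolar type 2 cells, and HTB56, also known as Calu-6, is an established line from a poorly differentiated lung carcinoma. Epithelial cells hold together through cadherin junctions, desmosomes and keratin filaments, whereas mesenchymal cells are known for secreted matrix collagens and regulators such as ZEB1 and SNAI2. NRF2, the product of NFE2L2, is a transcription factor that switches on detoxifying and antioxidant enzymes through antioxidant response elements, and KEAP1 is the adaptor that marks NRF2 for degradation. A549 is known for inactivating changes in KEAP1, STK11 and SMARCA4 and for loss of the CDKN2A region. Genotype was not measured here.

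Values are log2 RMA signals, in which 1 unit is a 2-fold difference, and differences are given as HTB56 minus A549 with the standard error (SE) of the limma fit. Array medians of the 12 arrays were all close to one another, between 5.55 and 5.67. Across probe sets of the 6 unselected arrays, arrays within a group correlated with r between 0.989 and 0.995 and arrays of different lines with r between 0.950 and 0.958. A549 replicate 2 stood apart in 1 respect. In 28 genes that were bright in HTB56 (mean of at least 9) and dim in A549 replicates 1 and 3 (mean below 5), replicate 2 lay above the mean of the other two by a median of 0.96, with a range of -0.23 to 3.55. It was the highest of the 3 A549 arrays in 22 of the 28, while replicates 1 and 3 differed from each other by a median of 0.27. On the 3 arrays of selected A549 the same genes lay 0.05, 0.24 and 0.17 above that mean. The reverse set held 34 genes, bright in A549 replicates 1 and 3 and dim in HTB56. There the median deviation of A549 replicate 2 from the mean of replicates 1 and 3 was -0.13. It was the lowest A549 array in 19 and the highest in 0. On the 3 arrays of selected A549 these genes lay at -0.08, -0.14 and -0.31 from that mean. Like the first set, this one was chosen by A549 replicates 1 and 3, which can by itself set replicate 2 apart. In that set HTB56 replicate 2 lay above the other HTB56 arrays by a median of 0.17, against -0.08 for replicate 1 and 0.0 for replicate 3. Whether RNA of the other line had a part in this was not tested, and results are given with and without that array.

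**Figure D1:**
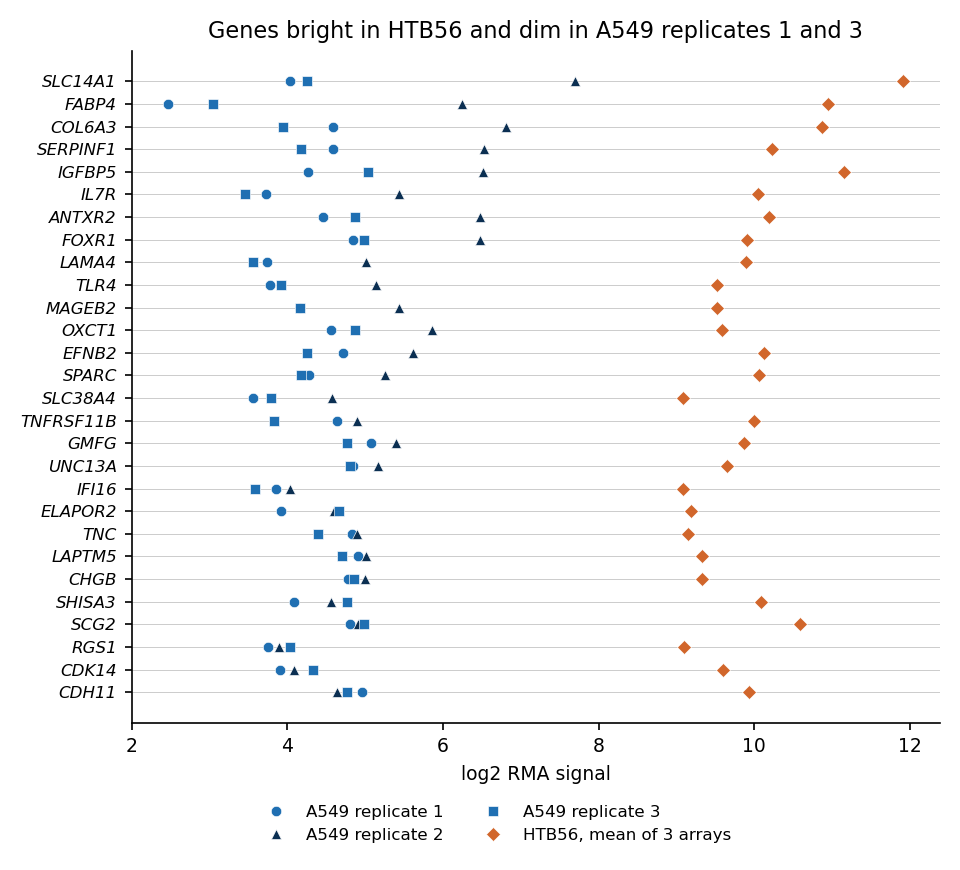
Log2 RMA signal (x axis) of the 28 genes with an HTB56 mean of at least 9 and a mean of A549 replicates 1 and 3 below 5, with A549 replicates 1, 2 and 3 as separate symbols and the HTB56 mean of 3 arrays as a diamond. A549 replicate 2 is the highest A549 array in 22 of 28 genes and remains below the HTB56 mean in each of the 28.

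The lines differed at a large share of the transcriptome. Of 16939 genes tested, 7648 (45.2%) passed a limma adjusted p of 0.05, with 4211 higher in HTB56 (24.9%) and 3437 lower (20.3%). Because that share is broad, a gene is here called only where it passed and also differed by at least 2-fold. By this rule 2359 genes (13.9%) were called, 1212 higher in HTB56 (7.16%) and 1147 lower (6.77%). A difference of at least 4-fold was reached by 745 genes (4.4%). Over all genes the median difference was -0.01 and the median size of a difference was 0.29. The arrays of the groups did not overlap in 9007 genes (53.2%). Since the RNA is of whole cultures, fewer cells with a transcript and less of it per cell cannot be told apart. Precision is limited by having 3 arrays a line. Without A549 replicate 2, 2384 genes were called (14.1%), of which 2268 were among the 2359, and the split was 1210 higher (7.14%) and 1174 lower (6.93%). GAPDH, a glycolytic enzyme often used as a reference, had 13.85, 13.75 and 13.81 in A549 and 13.96, 13.90 and 14.00 in HTB56, with a difference of 0.15 (adjusted p = 0.189).

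**Figure D2:**
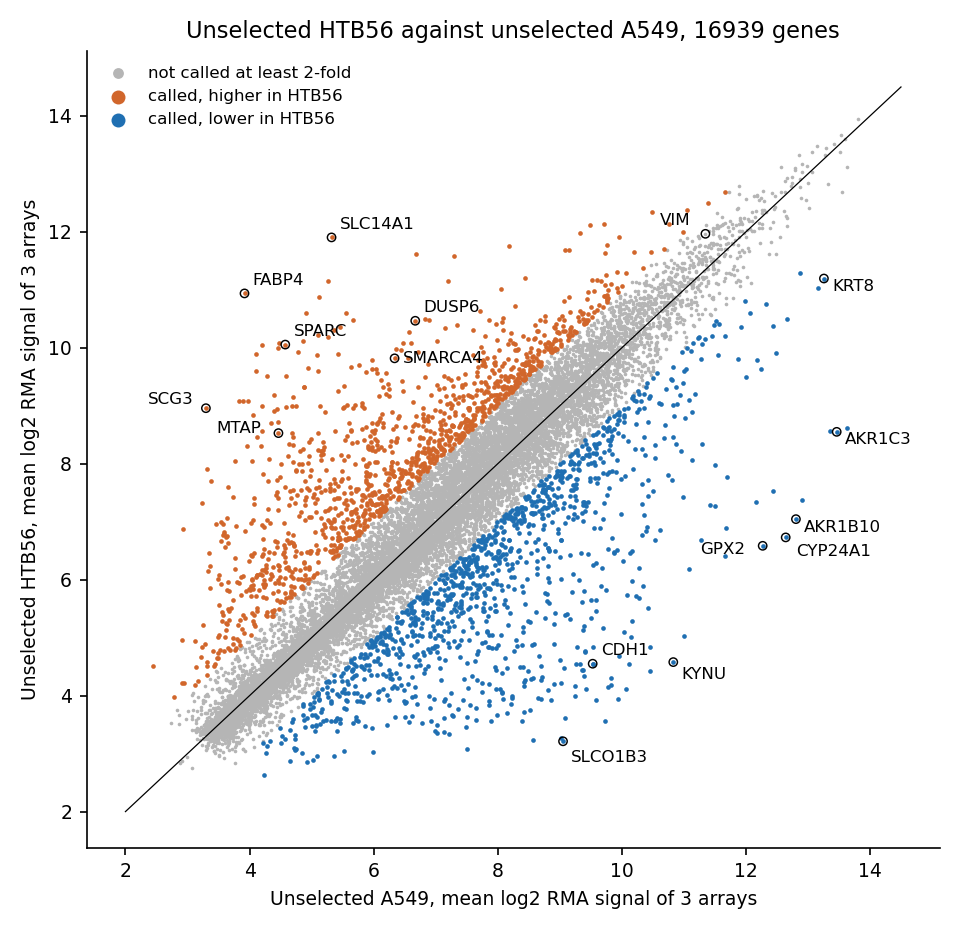
Mean log2 RMA signal of 3 arrays in unselected A549 (x axis) against unselected HTB56 (y axis) for 16939 genes, with called genes coloured by direction and the line of equality drawn. The 1212 genes called higher and the 1147 called lower lie on opposite sides of the line.

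The gene with the largest negative difference was KYNU, which encodes kynureninase, an enzyme of tryptophan breakdown. KYNU had 10.86, 10.80 and 10.84 in A549 and 4.28, 5.22 and 4.23 in HTB56, a difference of -6.25 (SE 0.21, adjusted p = 9.48e-12) and a 76.2-fold lower signal. All A549 arrays were thus high and all HTB56 arrays low, and the lowest A549 array lay far above the highest HTB56 array. The other 14 genes of the 15 with the largest negative differences ranged from CP (ceruloplasmin, a copper-carrying ferroxidase, -6.17, SE 0.22) to CNTN1 (a neural cell adhesion protein, -5.61, SE 0.14). Metabolic enzymes in this group were HGD (homogentisate dioxygenase of tyrosine breakdown, -6.02), CYP24A1 (the vitamin D-inactivating hydroxylase, -5.91), AKR1B10 (an aldo-keto reductase, -5.76), GPX2 (a glutathione peroxidase, -5.69) and PON3 (a lactonase, -5.67). Surface and secreted proteins were TM4SF20 (-5.997), RSPO3 (a Wnt potentiator, -5.98), HAVCR1 (also known as kidney injury molecule, -5.96), SLCO1B3 (a hepatic organic anion transporter, -5.84) and CD24 (a surface glycoprotein, -5.75). BICC1 (an RNA-binding protein, -5.65) and NRIP1 (a nuclear receptor corepressor, -5.63) completed the group. None of these 15 differences moved by more than 1.5-fold without A549 replicate 2. SLCO1B3 and CD24 had HTB56 means below 3.48, the 20th percentile of an array averaged over arrays, so that their size rests on a dim signal.

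FABP4, the fatty acid-binding protein of adipocytes and macrophages, had the largest positive difference. It had 2.47, 6.24 and 3.05 in A549 and 10.86, 11.07 and 10.88 in HTB56, a difference of 7.02 (SE 0.64, adjusted p = 3.48e-07) that became 8.18 without A549 replicate 2. The other two A549 arrays lay below 3.48 too, so that the size of 8.18 rested on a dim signal. SLC14A1, a urea transporter, had 4.03, 7.69 and 4.25 in A549 against 11.95, 11.99 and 11.78 in HTB56, a difference of 6.58 (SE 0.65) or 7.77 without that array. In both genes replicate 2 was the high A549 array, and the groups did not overlap, which the choice of these genes required. Secreted and matrix proteins made up much of the rest of the 15 genes: IGFBP5 (5.88, or 6.50 without the array), LAMA4 (laminin alpha 4, 5.78 or 6.24), COL6A3 (collagen VI, 5.76 or 6.61), TNFRSF11B (osteoprotegerin, 5.54 or 5.76) and SPARC (a matricellular protein, 5.48 or 5.82). IL7R (the interleukin 7 receptor, 5.85 or 6.46), EFNB2 (an ephrin ligand, 5.26 or 5.64) and TLR4 (the endotoxin receptor, 5.23 or 5.67) were surface proteins in this group. The secretory granule genes SCG2 (5.69 in both calculations) and SCG3 (5.66 or 5.68), SHISA3 (5.62 or 5.67), the kinase gene CDK14 (5.49 or 5.48) and the DNA sensor gene IFI16 (5.25 or 5.36) moved little. Replicate 2 was the highest A549 array in 12 of these 15 genes and in 0 of the 15 with the largest negative differences. Among all 1212 genes called higher, 7 moved by more than 1.5-fold without it: FABP4, SLC14A1, IGFBP5, IL7R, COL6A3, SERPINF1 and ANTXR2. Of the 1147 called lower, 0 did.

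**Figure D3:**
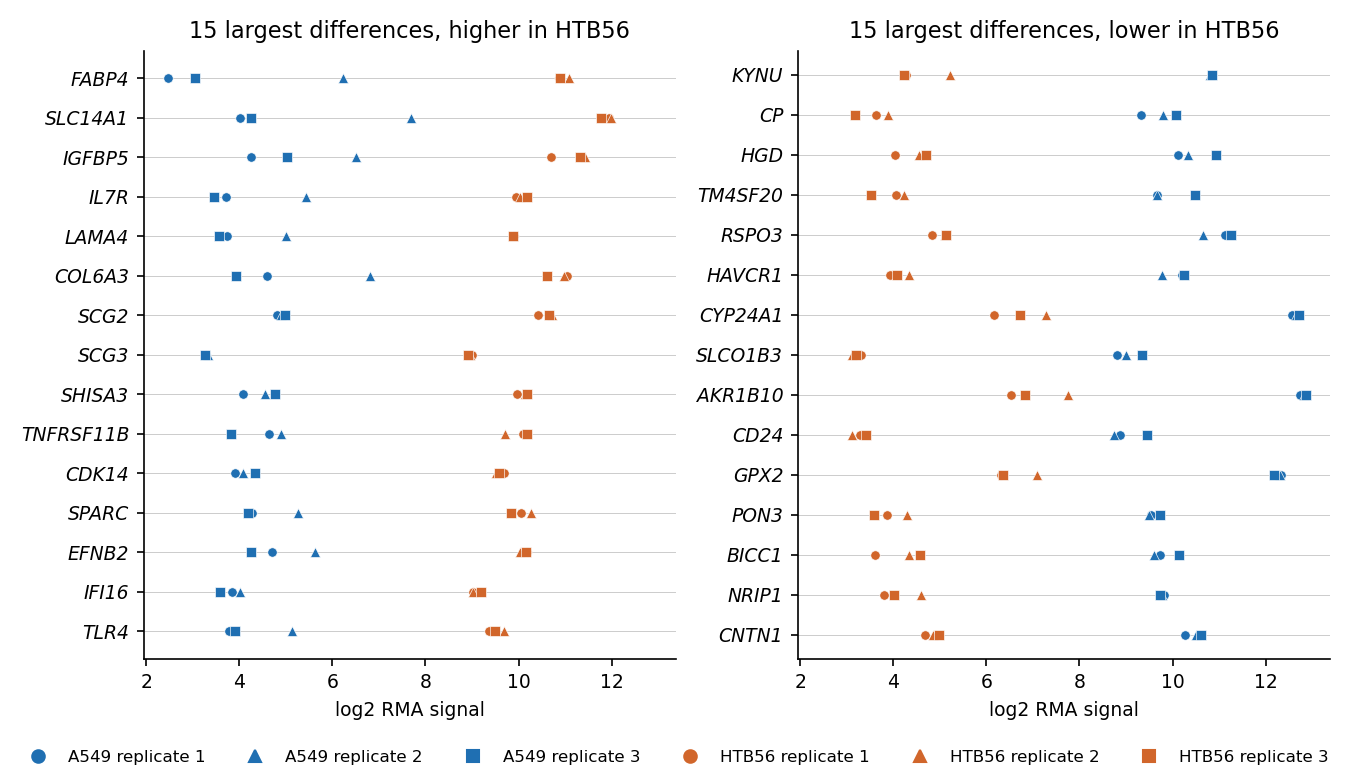
Log2 RMA signal (x axis) on each of the 6 arrays for the 15 genes with the largest positive (left) and the 15 with the largest negative difference (right), A549 in blue, HTB56 in orange, replicates 1, 2 and 3 as circle, triangle and square. The 30 genes were chosen among those in which the groups do not overlap. In FABP4 and SLC14A1 A549 replicate 2 lies between the other A549 arrays and the HTB56 arrays.

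Gene lists by lineage, signalling and metabolism were described by how many members were called in each direction, against 7.16% higher and 6.77% lower over all genes tested. The share of NRF2 target genes called lower, 77.8%, was the highest share among the 36 lists in either direction, and mesenchymal genes had the highest share called higher, 41.5%. Lists were chosen with earlier results of these data known, so these ranks only describe the lists used. Most members named below are the largest called differences of their list. That their arrays lie apart follows largely from this choice, and 53.2% of all genes tested had no overlap.

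**Figure D4:**
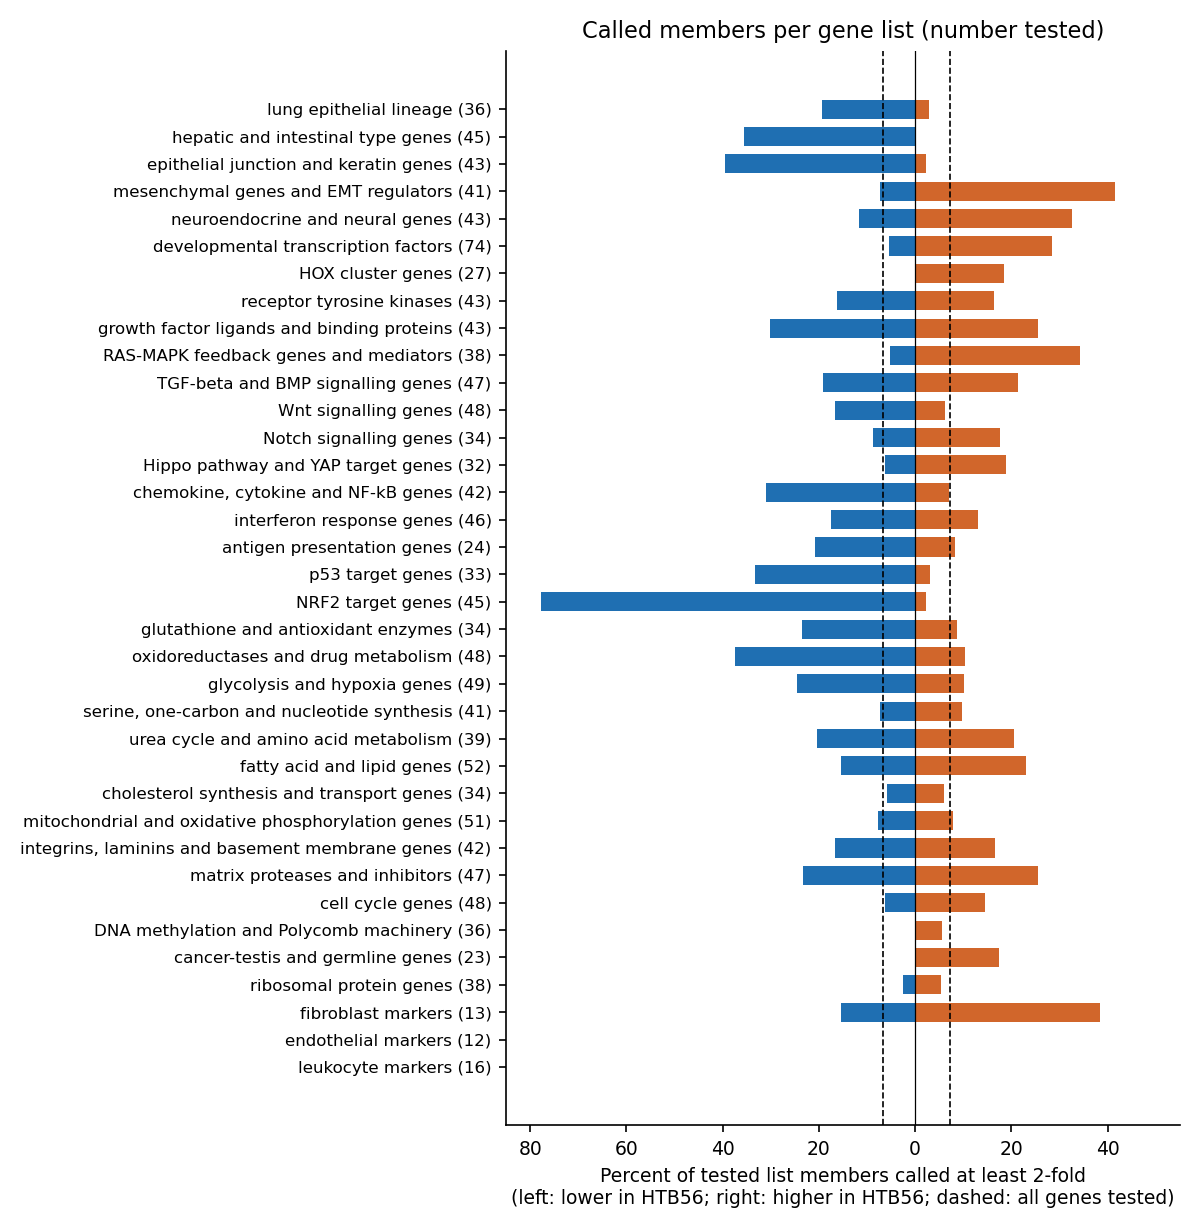
Percent of tested members of each of 36 gene lists called at least 2-fold lower (bars to the left, blue) or higher (bars to the right, orange) in HTB56, with the number tested in parentheses and dashed lines at the shares over all genes. NRF2 targets extend to 77.8% on the left, mesenchymal genes to 41.5% on the right, and endothelial and leukocyte markers have no bar.

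Many epithelial genes were lower in HTB56. Of 43 junction and keratin genes, 17 (39.5%) were called lower and 1 (2.3%) higher, with a median difference of -0.42 that was -0.46 without A549 replicate 2. CDH1, which encodes E-cadherin of adherens junctions, had 9.53, 9.52 and 9.55 in A549 and 4.43, 4.498 and 4.73 in HTB56, a difference of -4.98 (SE 0.15) or 31.6-fold. All A549 arrays lay above all HTB56 arrays, and the spread within each line was a small part of the gap. The desmosome gene DSP (desmoplakin) had 8.62, 8.88 and 8.19 in A549 and 4.33, 4.44 and 4.14 in HTB56, a difference of -4.26. JUP (plakoglobin of desmosomes, -3.29) and SPINT2 (a serine protease inhibitor of epithelia, -3.76) were also called lower. KRT8, a keratin of simple epithelia, had 13.36, 13.20 and 13.21 in A549 and 11.14, 11.36 and 11.09 in HTB56 (-2.06, SE 0.10). Its partner KRT18 was lower by less than 2-fold (-0.87, SE 0.09, and -0.68 at its other probe set). EPCAM, an epithelial adhesion protein, had 7.92, 7.89 and 8.26 against 6.91, 6.32 and 5.73 (-1.70, SE 0.23, and -1.34 at its other probe set). The exception was MAL2, a protein of apical transport, at 1.15 (SE 0.22). CDH1 and DSP were thus below 5 on all HTB56 arrays, while KRT8 and KRT18 remained above 11 on each of them.

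Many mesenchymal genes were higher in HTB56. From the list of 41 tested, 17 (41.5%) were called higher and 3 (7.3%) lower, the median difference was 0.47, and without A549 replicate 2 the counts were 17 and 4. CDH11, a cadherin of mesenchymal cells, had 4.96, 4.64 and 4.76 in A549 and 10.12, 9.81 and 9.86 in HTB56 (5.14, SE 0.16). LOX, which crosslinks collagen, had 4.03, 4.79 and 4.36 against 8.76, 8.93 and 9.04 (4.51, SE 0.20). Neither gene had an A549 array near the HTB56 arrays. COL6A3 and SPARC, given above, were the other leading members. The 3 members called lower were S100A4 (a calcium-binding protein of motile cells, -3.84, SE 0.14), ACTA2 (smooth muscle actin, -1.65, SE 0.15) and TWIST2 (-1.13, SE 0.15). VIM, the vimentin intermediate filament, was bright in both lines, with 11.46, 11.25 and 11.33 in A549 and between 11.89 and 12.01 in HTB56 (0.62, SE 0.09), and ZEB1 differed by 0.78 (SE 0.12). Both passed the adjusted p but were under 2-fold.

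Lung lineage genes were for the most part not called. Of 36 tested, 7 (19.4%) were called lower in HTB56, 1 (2.8%) higher and 28 in neither direction. Genes of mucosal epithelium led: AGR2, a protein-folding enzyme of mucus-secreting cells, had 9.91, 10.33 and 10.61 in A549 and 5.39, 6.203 and 5.45 in HTB56 (-4.61, SE 0.22). CEACAM6, a surface adhesion protein, differed by -4.19 (SE 0.18), and the epithelial transcription factors ELF3 and SPDEF by -3.67 (SE 0.19) and -1.99 (SE 0.22). In each of these 4 genes every A549 array was above every HTB56 array, but they were named as the largest negative differences of the list. The arrays of the lines did not overlap in 53.2% of all genes tested. CAV1, which encodes caveolin 1, was the member called higher at 1.06 (SE 0.16), and at 0.93 without A549 replicate 2 it was under 2-fold. NKX2-1, the thyroid and lung lineage factor, had 4.23, 4.22 and 4.09 in A549 and 4.15, 4.35 and 4.02 in HTB56, so the arrays of both lines overlapped at a dim level. Its difference was -0.01 (adjusted p = 0.978) and had no stable sign, being 0.05 after cyclic loess.

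Of 45 genes of hepatic and intestinal type, 16 (35.6%) were called lower in HTB56, 0 higher and 29 in neither direction, with a median of -0.43. CDH17, an intestinal cadherin, had 8.90, 9.24 and 9.59 in A549 and 3.70, 4.27 and 3.997 in HTB56 (-5.25, SE 0.21). CPS1, the first enzyme of the urea cycle, had 10.28, 10.48 and 10.51 against 5.31, 6.13 and 5.10 (-4.91, SE 0.21). The plasma protein genes APOH (-4.33, SE 0.14) and FGB (fibrinogen beta, -4.24, SE 0.27) followed. For CDH17 and CPS1 every A549 array lay several units above every HTB56 array. FGA, the fibrinogen alpha gene, had 7.83, 7.95 and 8.12 in A549 and 3.96, 4.08 and 4.30 in HTB56 (-3.86, SE 0.13). It was singled out after its values were seen because of the 250 bases before its annotated start (RefSeq, GRCh38.p14, chr4:154590743-154590992, minus strand). They hold part of the binding site of the hepatic factor HNF1 (GTTAAT, any base, then ATT), here in capitals on the opposite strand from position -56.
FGA: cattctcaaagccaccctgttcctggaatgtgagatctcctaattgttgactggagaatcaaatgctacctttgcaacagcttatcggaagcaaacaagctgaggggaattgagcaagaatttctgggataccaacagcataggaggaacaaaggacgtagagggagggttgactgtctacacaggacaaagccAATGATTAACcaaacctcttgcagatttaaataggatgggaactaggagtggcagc
That motif, searched on both strands, was found in 3 of the 30 list members with a promoter window (10%), 2 of them called lower, and in 0.296% of all 35116 windows of this length. A match describes letters only.

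Neuroendocrine and neural genes moved both ways. Of 43 tested, 14 (32.6%) were called higher in HTB56 and 5 (11.6%) lower, with the same counts without A549 replicate 2 and a median of 0.02. Granule proteins were the largest positive differences: SCG2 (secretogranin 2) had 4.81, 4.91 and 4.99 in A549 and 10.41, 10.72 and 10.64 in HTB56 (5.69, SE 0.14). SCG3 (secretogranin 3) had 3.29, 3.33 and 3.27 against 9.004, 8.97 and 8.91 (5.66, SE 0.10). CHGB (chromogranin B) had 4.78, 5.00 and 4.85 against 9.40, 9.13 and 9.47 (4.45, SE 0.12). These granin genes were dim on all A549 arrays, SCG3 below 3.48, and high on all HTB56 arrays. GAP43, a growth cone protein, differed by 4.495 (SE 0.25). The members called lower were led by UCHL1 (a neuronal ubiquitin hydrolase, -5.26, SE 0.18), the adhesion gene NRCAM (-5.07, SE 0.16), NTS (the neurotensin precursor, -4.71, SE 0.29) and NPY1R (a neuropeptide Y receptor, -1.78, SE 0.16).

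Developmental transcription factors and HOX genes were more often higher in HTB56. Of 74 developmental genes 21 (28.4%) were called higher and 4 (5.4%) lower. SOX2, a factor of stem and foregut progenitor cells, had 5.16, 5.86 and 6.08 in A549 and 8.70, 8.99 and 9.35 in HTB56 (3.31, SE 0.20). The homeobox genes DLX1 (3.70, SE 0.15) and DLX2 (3.12, SE 0.16), which lie side by side in the genome, and the mRNA-binding protein gene IGF2BP2 (3.36, SE 0.14) were called higher as well. Lower were EYA4 (-3.89, SE 0.15), TBX18 (-2.78, SE 0.12), WT1 (-1.47, SE 0.16) and LHX2 (-1.09, SE 0.12). In the HOX clusters, 5 of 27 (18.5%) were called higher and 0 lower, led by HOXC10 (2.58, SE 0.23), HOXD10 (1.97, SE 0.14), HOXD11 (1.496, SE 0.10) and HOXD13 (1.36, SE 0.19).

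Receptor tyrosine kinase genes split evenly, with 7 of 43 (16.3%) called higher, 7 lower and 29 not called. KIT, the stem cell factor receptor, had 3.64, 3.31 and 3.88 in A549 and 6.96, 6.10 and 6.65 in HTB56 (2.96, SE 0.20). The ephrin receptor genes EPHA4 (3.08, SE 0.15), EPHB1 (2.74, SE 0.11) and EPHB6 (2.65, SE 0.14) were higher too. NTRK3, a neurotrophin receptor, had 7.97, 7.79 and 9.10 in A549 and 5.22, 4.92 and 4.71 in HTB56 (-3.33, SE 0.29). FGFR4 (-3.04, SE 0.14), ERBB3 (-1.92, SE 0.12) and MST1R (-1.49, SE 0.13) were the next lower members. EGFR, the epidermal growth factor receptor, had 9.25, 9.15 and 8.94 against 9.07, 9.01 and 8.67, with overlapping arrays and a difference of -0.19 (SE 0.14, adjusted p = 0.276). MET, the hepatocyte growth factor receptor, was lower by under 2-fold (-0.91, SE 0.10).

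Ligands and their binding proteins went both ways, with 11 of 43 (25.6%) called higher and 13 (30.2%) lower. PDGFC, a platelet-derived growth factor, had 5.46, 6.03 and 5.51 in A549 and 10.43, 10.31 and 10.69 in HTB56 (4.81, SE 0.16), whereas its relative PDGFD had 7.56, 7.32 and 8.07 against 3.51, 3.45 and 3.77 (-4.08, SE 0.18). PDGFC was thus the higher in HTB56 and PDGFD the higher in A549, each with no overlap of arrays. Among insulin-like growth factor binding proteins, IGFBP5 was higher in HTB56 and IGFBP3 (-3.02, SE 0.12) and IGFBP4 (-2.94, SE 0.13) were lower. ANGPT2, a vessel-destabilising ligand, was higher (3.76, SE 0.23). NRG1, a ligand of ERBB3, had 9.07, 9.06 and 9.65 in A549 and 4.49, 4.87 and 4.28 in HTB56 (-4.72, SE 0.20, and -2.46 at its other probe set).

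Of RAS-MAPK pathway and target genes, more were higher than lower in HTB56. The pathway runs from RAS through RAF, MEK and ERK, and ERK induces its own brakes, among them dual-specificity phosphatases and Sprouty proteins, and also ETV transcription factors, which carry its output. Of 38 tested, 13 (34.2%) were called higher and 2 (5.3%) lower, the median was 0.46, or 0.35 without A549 replicate 2, and the counts were the same without it. DUSP6, an ERK phosphatase, had 6.54, 6.96 and 6.52 in A549 and 10.34, 10.46 and 10.61 in HTB56 (3.80, SE 0.13), a 13.9-fold difference. SPRY2 had 5.802, 6.14 and 6.19 against 9.56, 9.59 and 9.77 (3.60, SE 0.12), and SPRY4 6.42, 6.67 and 6.26 against 9.87, 10.18 and 9.86 (3.52, SE 0.19). ETV1 had 6.11, 6.79 and 6.15 against 9.78, 10.05 and 10.10 (3.62, SE 0.16). In all 4 the lowest HTB56 array lay well above the highest A549 array, but they were named as the largest positive differences of the list. Over all genes tested, the arrays of the lines did not overlap in 53.2%. The 2 members called lower were RASSF2, a RAS-binding tumour suppressor (-3.03, SE 0.19), and DUSP1, a stress-induced phosphatase (-1.68, SE 0.20).

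Most NRF2 target genes were lower in HTB56. Of 45 tested, 35 (77.8%) were called lower against 6.77% over all genes, 1 (2.2%) was called higher and 9 were not called. Their median difference was -2.13, or -2.11 without A549 replicate 2, with the same counts. The list also holds the regulators NFE2L2 and KEAP1, which are among the 9 not called. In enzymes that reduce aldehydes and ketones, AKR1B10 had 12.74, 12.82 and 12.86 in A549 and 6.53, 7.76 and 6.84 in HTB56 (-5.76, SE 0.31, 54.3-fold). AKR1C2 had 12.72, 12.93 and 13.08 against 7.19, 7.66 and 7.29 (-5.53, SE 0.14), and transcripts of its near-identical relatives AKR1C1 and AKR1C3 could bind the same probes. For each gene all A549 arrays were high, all HTB56 arrays were several units lower, and replicate 2 was the highest HTB56 array. Of the glutathione system, GPX2 had 12.33, 12.30 and 12.18 in A549 and 6.31, 7.08 and 6.37 in HTB56 (-5.69, SE 0.20), and GSR, the glutathione reductase, had 12.22, 12.19 and 12.12 against 9.71, 9.68 and 9.997 (-2.38, SE 0.10). UCHL1, which is also a neural gene, is given above.

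Members named here by role after their values were seen were lower as well. The subunits of glutathione synthesis GCLC and GCLM differed by -1.98 (SE 0.11) and -1.94 (SE 0.12), and NQO1, the quinone reductase that is the usual readout of NRF2, by -2.17 (SE 0.17). The thioredoxin reductase gene TXNRD1 differed by -1.57 (SE 0.09) and the cystine transporter gene SLC7A11 by -1.06 (SE 0.14). Genes of the pentose phosphate pathway, which supplies NADPH, were PGD (-2.13, SE 0.09), TKT (-1.56, SE 0.21) and TALDO1 (-1.05, SE 0.10). The export pump genes ABCC2 (-3.91, SE 0.18) and ABCC3 (-4.34, SE 0.18) were lower, whereas another pump gene, ABCC5, was the member called higher (1.04, SE 0.16). HMOX1, the haem oxygenase gene, had 10.11, 9.33 and 8.57 in A549 and 6.67, 6.31 and 6.39 in HTB56 (-2.88, SE 0.35), with more spread among A549 arrays than the others named.

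The regulators themselves differed little. NFE2L2 had 9.73, 9.48 and 9.86 in A549 and 9.25, 9.37 and 9.56 in HTB56, with overlapping arrays and a difference of -0.30 (SE 0.12, adjusted p = 0.0533). Fitted with the replicate number as a block the adjusted p was 0.0109, and without A549 replicate 2 the difference was -0.40 (0.0161). KEAP1 had 9.45, 9.38 and 9.03 against 9.53, 9.43 and 9.21, also overlapping, with a difference of 0.10 (SE 0.14, adjusted p = 0.607) that was -0.04 after cyclic loess. An array for mRNA level does not show whether a protein is active.

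**Figure D5:**
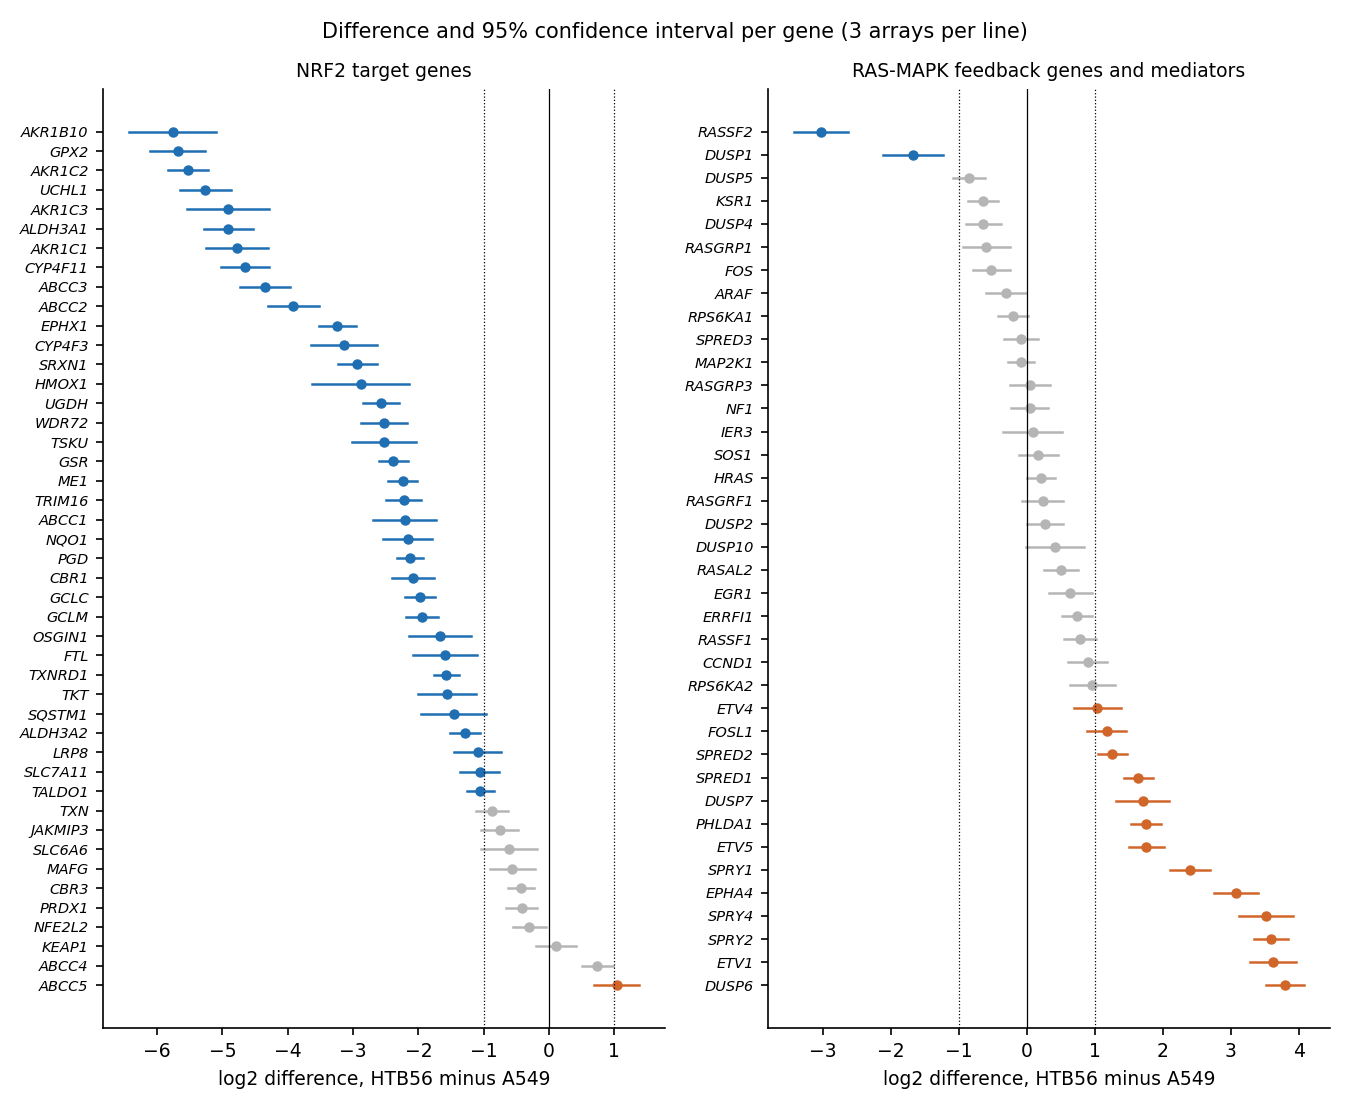
Log2 difference, HTB56 minus A549 (x axis), with its 95% confidence interval from limma for each tested member of the NRF2 target list (left, 45 genes) and the RAS-MAPK list (right, 38 genes), from 3 arrays per line, with dotted lines at 2-fold and called genes coloured by direction. On the left 35 genes lie beyond the lower dotted line and 1 beyond the upper, and on the right 2 and 13.

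The antioxidant response element has the core TGAC, then any 3 bases, then GCA. Promoter windows were available for 35 of the 45 NRF2 list members, and the core was found on either strand of the 250 bases before the start in 7 (20%), of which 6 were called lower. It was found in 2.59% of all 35116 windows and in 3.4% of the 13194 tested genes that have a window. A window of GPX2 and of GCLM, both members with a match and chosen with their values known, is printed 5′ to 3′ on the gene's strand with the match in capitals, from RefSeq on GRCh38.p14. The GPX2 window is chr14:64942746-64942995 on the minus strand and its match, on the opposite strand of the gene, begins at position -123 from the annotated start. The GCLM window is chr1:93909431-93909680, also minus strand, and its match begins at -35.
GPX2: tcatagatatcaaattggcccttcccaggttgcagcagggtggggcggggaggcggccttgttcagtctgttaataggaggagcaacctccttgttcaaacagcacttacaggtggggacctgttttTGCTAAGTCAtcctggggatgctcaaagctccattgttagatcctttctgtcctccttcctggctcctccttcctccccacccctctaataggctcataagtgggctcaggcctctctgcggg
GCLM: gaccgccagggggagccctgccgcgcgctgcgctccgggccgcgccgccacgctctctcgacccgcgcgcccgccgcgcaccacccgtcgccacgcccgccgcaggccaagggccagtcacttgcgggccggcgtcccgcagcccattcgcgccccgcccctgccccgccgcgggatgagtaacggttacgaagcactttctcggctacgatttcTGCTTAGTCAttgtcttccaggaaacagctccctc
GCLM had 9.93, 9.73 and 9.73 in A549 and 7.97, 7.79 and 7.82 in HTB56. The match is a description of the sequence, and no binding was measured.

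Other enzymes of detoxification were also more often lower. Of 34 glutathione and antioxidant genes, 8 (23.5%) were called lower and 3 (8.8%) higher, and of 48 oxidoreductase and drug metabolism genes 18 (37.5%) were lower and 5 (10.4%) higher. CYP24A1 had 12.57, 12.65 and 12.71 in A549 and 6.17, 7.29 and 6.73 in HTB56 (-5.91, SE 0.28). ALDH1A1, which makes retinoic acid, had 13.53, 13.56 and 13.79 against 7.89, 9.21 and 8.76 (-5.01, SE 0.32). Both were far lower on all HTB56 arrays than on all A549 arrays, and replicate 2 was the highest HTB56 array. ALDH7A1 (-4.70, SE 0.21), CYP1B1 (-3.57, SE 0.19), MGST3 (-1.55, SE 0.16) and GPX3 (-1.36, SE 0.15) were lower too. Higher in HTB56 were UGT8 (a galactosyltransferase of glycolipid synthesis, 3.63, SE 0.16), DHRS2 (3.15, SE 0.12), DPYD (the enzyme that breaks down pyrimidines, 3.04, SE 0.19) and CYP1A1 (1.65, SE 0.20). TXNIP, an inhibitor of thioredoxin, was higher at 2.24 (SE 0.33), PRDX2 at 1.84 (SE 0.19) and GSTM3 at 1.23 (SE 0.16).

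Glycolysis and hypoxia genes were mixed, with 12 of 49 (24.5%) called lower and 5 (10.2%) higher. BNIP3, a mitophagy gene, had 9.51, 9.15 and 9.53 in A549 and 4.34, 4.23 and 4.43 in HTB56 (-5.06, SE 0.13). CA12, a carbonic anhydrase, differed by -4.83 (SE 0.12), and EPAS1, which encodes the hypoxia factor HIF-2 alpha, by -3.56 (SE 0.16). Hexokinase genes went opposite ways: HKDC1 was lower (-4.43, SE 0.17), and HK2 was higher with 5.54, 6.66 and 5.52 in A549 against 8.75, 8.10 and 7.95 in HTB56 (2.36, SE 0.29). The arrays of the lines overlapped in neither. Higher as well were ALDOC (an aldolase, 2.98, SE 0.31), PDK1 (1.26, SE 0.12) and PFKM (1.12, SE 0.10).

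In serine, one-carbon and nucleotide synthesis, 4 of 41 (9.8%) were called higher and 3 (7.3%) lower. PHGDH, the entry enzyme of serine synthesis, had 8.15, 8.17 and 7.93 in A549 and 10.38, 10.71 and 10.46 in HTB56 (2.43, SE 0.14), and SHMT2, which moves the serine carbon to folate in mitochondria, differed by 1.35 (SE 0.13). MTAP, an enzyme of methionine salvage, had 4.47, 4.40 and 4.53 in A549 and 8.62, 8.35 and 8.62 in HTB56 (4.06, SE 0.11), 16.7-fold higher and without overlap. NT5E, the surface nucleotidase CD73, differed by 3.57 (SE 0.20). GLDC, which cleaves glycine, was lower (-2.31, SE 0.20), as were CDA (-2.04, SE 0.13) and ALDH1L2 (-1.12, SE 0.17, and -0.999 without A549 replicate 2).

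Amino acid metabolism split evenly, with 8 of 39 (20.5%) called in each direction. Besides KYNU and CPS1, the lower members included SLC7A7 and SLC7A5, transporters of cationic and of large neutral amino acids. SLC7A7 had 10.17, 9.97 and 10.21 in A549 and 4.57, 4.71 and 4.36 in HTB56 (-5.57, SE 0.14), while SLC7A5 had 12.62, 12.27 and 12.43 against 10.49, 10.49 and 10.12 (-2.07, SE 0.14). Higher were the glutamate transporter gene SLC1A3 (2.99, SE 0.15), ARG2 (mitochondrial arginase, 2.42, SE 0.19), GLUL (glutamine synthetase, 2.005, SE 0.10, and 1.31 at its other probe set) and SLC7A8 (1.69, SE 0.16).

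Of 52 fatty acid and lipid genes 12 (23.1%) were called higher and 8 (15.4%) lower, and without A549 replicate 2 the counts were 12 and 10. After FABP4, the leading positive members were LIPG (endothelial lipase, 3.32, SE 0.20), PNPLA3 (2.30, SE 0.18) and ACSL5 (1.99, SE 0.19). LIPH, a phospholipase, had 8.86, 8.91 and 9.26 in A549 and 4.58, 4.65 and 4.64 in HTB56 (-4.39, SE 0.12), and the elongases ELOVL7 (-4.07, SE 0.17) and ELOVL2 (-3.52, SE 0.16) and ACSM3 (-3.68, SE 0.12) were also lower. Cholesterol genes had 2 of 34 (5.9%) called in each direction, below the share over all genes: SC5D (a sterol desaturase, 1.96, SE 0.11) and ABCA1 (a cholesterol exporter, 1.23, SE 0.30) higher, VLDLR (-1.81, SE 0.23) and SCARB1 (-1.51, SE 0.14) lower. The list of mitochondrial and oxidative phosphorylation genes had 4 of 51 (7.8%) in each direction, near the share over all genes. It also holds genes of cytosolic enzymes, CKB and IDH1 among them. Higher were CKB (creatine kinase, 1.997, SE 0.09), SDHD (1.23, SE 0.14, and 0.81 at its other probe set), DLAT (1.18, SE 0.10) and OGDH (1.01, SE 0.10, and 0.96 without A549 replicate 2). Lower were IDH1 (-1.68, SE 0.10), SUCLG2 (-1.27, SE 0.14), UCP2 (-1.14, SE 0.16) and PC (-1.09, SE 0.18).

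TGF-beta and BMP genes had 10 of 47 (21.3%) called higher and 9 (19.1%) lower. Ligands and secreted inhibitors went both ways: BMP5 had 3.29, 4.03 and 3.56 in A549 and 6.60, 6.81 and 6.80 in HTB56 (3.11, SE 0.18), and FST (follistatin, 2.79, SE 0.25), INHBA (2.71, SE 0.20) and FSTL1 (2.45, SE 0.20) were higher. By contrast GDF15 (-1.82, SE 0.33), INHBB (-1.70, SE 0.15), the receptor gene BMPR1B (-1.74, SE 0.13) and the decoy receptor gene BAMBI (-1.58, SE 0.17) were lower. The activin subunits INHBA and INHBB thus differed in opposite directions.

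In Wnt signalling, 8 of 48 (16.7%) were called lower and 3 (6.2%) higher. RSPO3, a secreted potentiator, had 11.12, 10.65 and 11.25 in A549 and 4.83, 5.12 and 5.13 in HTB56 (-5.98, SE 0.18). Of the R-spondin receptors, LGR4 had 11.51, 11.53 and 11.46 in A549 and 8.08, 7.94 and 7.92 in HTB56 (-3.52, SE 0.12), and LGR5 had 3.86, 3.59 and 3.85 against 7.62, 7.99 and 8.53 (4.28, SE 0.19). LGR4 was therefore lower and LGR5 higher in HTB56, each with no overlap of arrays. The ubiquitin ligase gene RNF43, whose product R-spondins inhibit, was lower (-3.68, SE 0.20), as was the Wnt antagonist gene SFRP4 (-3.53, SE 0.23). The nuclear factor gene LEF1 (3.41, SE 0.22) and DACT1 (1.10, SE 0.18) were higher.

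In Notch signalling, 6 of 34 (17.6%) were called higher and 3 (8.8%) lower. MFNG, a glycosyltransferase that modifies Notch, had 5.16, 5.28 and 4.98 in A549 and 9.26, 9.12 and 8.60 in HTB56 (3.85, SE 0.15), and the target gene HEY1 (3.19, SE 0.19), the coactivator gene MAML2 (2.13, SE 0.12) and RBPJ, the DNA-binding partner (1.70, SE 0.10, and 1.59 at its other probe set), were higher. The receptor gene NOTCH3 (-2.34, SE 0.19), the ligand gene JAG2 (-1.07, SE 0.15, and -0.95 without A549 replicate 2) and the protease gene ADAM10 (-1.05, SE 0.10) were lower. In the Hippo and YAP list 6 of 32 (18.8%) were called higher and 2 (6.2%) lower, among them the targets ANKRD1 (2.52, SE 0.17) and CCN2 (1.36, SE 0.16) and the regulator PTPN14 (1.48, SE 0.11) against the pathway genes WWC1 (-2.33, SE 0.19) and LIMD1 (-1.74, SE 0.15).

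Chemokine, cytokine and NF-kB genes were more often lower in HTB56, 13 of 42 (31.0%) against 3 (7.1%) higher, with a median of -0.44. IL18, a cytokine of the interleukin 1 family, had 8.69, 8.31 and 8.69 in A549 and 3.06, 3.48 and 3.15 in HTB56 (-5.34, SE 0.23), with an HTB56 mean below the 20th percentile. IL1R1, the interleukin 1 receptor, had 8.59, 8.43 and 8.55 against 3.68, 3.95 and 3.63 (-4.77, SE 0.15), and the chemokine genes CCL2 (-3.32, SE 0.12) and CXCL16 (-3.04, SE 0.25) were lower. TLR4 had 3.78, 5.14 and 3.92 in A549 and 9.36, 9.70 and 9.49 in HTB56, and NFKBIZ (1.73, SE 0.15) and IL11 (1.33, SE 0.24) were the other members called higher.

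Interferon response genes had 6 of 46 (13.0%) called higher and 8 (17.4%) lower. IFI16 had 3.85, 4.03 and 3.60 in A549 and 9.02, 9.02 and 9.19 in HTB56, and IFI44L (3.38, SE 0.13) and the virus-restricting membrane proteins IFITM3 (3.07, SE 0.28) and IFITM1 (2.48, SE 0.27) were higher. OAS1, an enzyme that activates RNA decay, had 9.23, 9.27 and 10.02 against 5.78, 5.42 and 5.77 (-3.85, SE 0.20), and HERC6 (-2.16, SE 0.15), OAS3 (-2.04, SE 0.15) and PARP9 (-1.96, SE 0.16) were lower. Members of 1 response list were thus well separated in opposite directions. Of 24 antigen presentation genes, 5 (20.8%) were called lower, led by HLA-DMB (-2.52, SE 0.24), MICB (-2.02, SE 0.15), the peptide transporter gene TAP1 (-1.65, SE 0.13) and HLA-DMA (-1.45, SE 0.14). B2M (1.18, SE 0.23) and CD274, which encodes PD-L1 (1.53, SE 0.23), were called higher.

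Targets of p53 were lower more often than higher in HTB56, 11 of 33 (33.3%) against 1 (3.0%), with a median of -0.59. The tumour suppressor p53 induces cell cycle inhibitors and death receptors after DNA damage. CDKN1A, the inhibitor p21, had 7.30, 7.03 and 6.88 in A549 and 5.78, 5.90 and 5.86 in HTB56 (-1.23, SE 0.13). FAS, a death receptor, had 7.13, 6.82 and 7.31 against 4.98, 5.05 and 5.06 (-2.06, SE 0.14), and CYFIP2 (-2.62, SE 0.10) and EDA2R (-2.26, SE 0.16) were lower. CCNG1, a cyclin, was called higher (1.03, SE 0.12) but was at 0.99 without A549 replicate 2, which left 0 called higher and 11 lower. MDM2, the p53 inhibitor and target, had 9.57, 9.60 and 9.47 in A549 and 9.37, 9.38 and 9.28 in HTB56 (-0.20, SE 0.10, adjusted p = 0.111), or 0.0246 with the replicate number as a block. The remaining 21 members, MDM2 among them, were not called.

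Integrins, laminins and basement membrane genes split evenly, with 7 of 42 (16.7%) called in each direction. LAMA4 had 3.74, 5.01 and 3.56 in A549 and 9.90, 9.88 and 9.88 in HTB56, and the integrin genes ITGA2 (2.22, SE 0.14), ITGB8 (1.87, SE 0.12) and ITGA11 (1.38, SE 0.15) were higher. ITGB4, the hemidesmosome integrin, had 9.05, 8.98 and 8.25 against 5.28, 5.42 and 5.34 (-3.41, SE 0.22), and the tetraspanin gene CD9 (-1.90, SE 0.13), COL4A2 (-1.73, SE 0.10) and ITGB6 (-1.64, SE 0.28) were lower. Matrix proteases and inhibitors had 12 of 47 (25.5%) called higher and 11 (23.4%) lower. MMP2, gelatinase A, had 5.62, 5.78 and 5.49 in A549 and 9.61, 9.90 and 9.48 in HTB56 (4.03, SE 0.12), and its inhibitor family member TIMP3 had 5.30, 6.57 and 4.80 against 10.61, 10.66 and 10.53 (5.04, SE 0.35, or 5.55 without A549 replicate 2, and 3.56 at its other probe set). In MMP7, matrilysin, the order was the reverse, with 8.12, 8.25 and 7.85 in A549 against 4.04, 3.83 and 4.28 in HTB56 (-4.02, SE 0.15). The inhibitor genes TFPI2 (-5.28, SE 0.14) and SLPI (-4.87, SE 0.19) and the protease gene CTSS (-2.94, SE 0.17) were lower, and ADAM19 (3.06, SE 0.17) and ADAMTS12 (3.00, SE 0.15) higher.

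Of 48 cell cycle genes, 7 (14.6%) were called higher and 3 (6.2%) lower, with a median of 0.33. By the adjusted p alone, with no fold limit, 24 of the 48 were higher and 9 lower, against 24.9% and 20.3% of all genes tested. Without A549 replicate 2 the counts at 2-fold were 4 and 3. The cyclin-dependent kinase inhibitor genes CDKN2A (p16 and p14ARF) and CDKN2B (p15) were higher. CDKN2A had 6.01, 5.63 and 6.13 in A549 and 7.71, 7.68 and 7.44 in HTB56 (1.69, SE 0.14), and CDKN2B had 5.85, 5.58 and 5.83 against 6.81, 7.12 and 7.09 (1.26, SE 0.15). CDK6 (1.69, SE 0.11) and BUB1B (1.198, SE 0.11) were higher, and CCND3 (-2.26, SE 0.17) and MKI67, the proliferation marker Ki-67, were lower. MKI67 had 9.81, 10.01 and 9.59 in A549 and 8.29, 8.45 and 8.41 in HTB56 (-1.42, SE 0.14). In the DNA methylation and Polycomb list 2 of 36 (5.6%) were called higher and 0 lower. SMARCA4, the BRG1 motor of SWI/SNF chromatin remodelling, had 6.34, 6.61 and 6.06 in A549 and 9.88, 9.82 and 9.76 in HTB56 (3.48, SE 0.13), 11.2-fold higher and far apart, and TET2 differed by 1.06 (SE 0.18, and 0.73 at its other probe set). STK11, the kinase LKB1, had 8.09, 8.13 and 8.26 against 8.76, 9.02 and 8.77 (0.69, SE 0.11). Cancer-testis genes had 4 of 23 (17.4%) higher and 0 lower: MAGEB2 (4.93, SE 0.26), DDX53 (3.14, SE 0.17), CSAG1 (2.20, SE 0.22) and DDX43 (1.35, SE 0.17). Of 38 ribosomal protein genes 2 (5.3%) were higher and 1 (2.6%) lower, with RPS15 (0.47 at its other probe set) and RPS24 at 1.02 and RPS23 at -1.001, next to the 2-fold limit.

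Marker sets were read for other cell types. The 8 markers of lung carcinoma epithelium had array means of 9.38 to 9.46 in A549 and 7.58 to 7.79 in HTB56, with 0 called higher and 5 lower, and KRT18 was the brightest in both. The 9 tested fibroblast markers had array means of 5.23 to 5.61 in A549 and 6.59 to 6.78 in HTB56, with 5 called higher, led by COL6A3, PDGFRA (2.12, SE 0.17), PDGFRB (1.69, SE 0.19) and LUM (1.61, SE 0.24). In the longer fibroblast list the complement genes C1S (-4.42, SE 0.19) and C1R (-2.30, SE 0.12) were lower. The 8 tested endothelial markers lay at 4.48 to 4.56 in A549 and 4.48 to 4.51 in HTB56, and the 9 tested leukocyte markers at 4.43 to 4.57 and 4.29 to 4.38, with 0 called in either set by limma. Their part in the differences above was not tested.

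The line difference was also measured between the same lines after selection, on the other 6 arrays. Those arrays entered the same model and filter, and so the standard errors above, but not the means of the unselected groups. Between H3R and A3R 2101 genes were called (12.4%), 1036 higher in HTB56 (6.12%) and 1065 lower (6.29%). In the same direction 1498 genes were called in both comparisons, which is 63.5% of the calls in unselected cells and 71.3% of those in selected cells, and 5 were called in opposite directions. Of the 2359 genes called in unselected cells, 812 had a line difference that changed with selection (interaction, limma adjusted p of 0.05), against 11.8% of all genes tested, and in 699 of the 812 it was smaller in selected cells. The 2359 were chosen by their unselected values, so a smaller value elsewhere is not independent of that choice. NRF2 targets had 36 of 45 called lower in selected cells and 0 higher, and RAS-MAPK genes 13 higher and 2 lower, as in unselected cells. AKR1B10 differed by -6.47 there, GPX2 by -6.10, DUSP6 by 3.14 and SMARCA4 by 3.56.

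For neuroendocrine genes the line difference was smaller after selection, with 5 of 43 called higher and 4 lower in selected cells in place of 14 and 5. The interaction was called in 17 of the 19 members called in unselected cells, and 15 of the 17 differences were smaller in selected cells. For SCG3 the difference was 0.61 in selected cells (interaction -5.05, SE 0.14), for CHGB 0.51 (interaction -3.95), for SCG2 2.39 (interaction -3.30) and for NTS -0.46 (interaction 4.25). SOX2 differed by 0.74 in selected cells (interaction -2.57). Among epithelial genes the difference of CDH1 was -4.17, of DSP -1.51 and of EPCAM -0.26, with interactions of 0.81, 2.75 and 1.44.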

How the data were processed

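RNA of 12 samples was hybridised to Affymetrix whole-transcript arrays, and the 6 arrays of unselected cells were compared. The authors deposited log2 values made with RMA (Affymetrix Expression Console, as named in the submitters' processing notes). Its version: not given in the sources used here. This method subtracts background, forces all arrays to 1 distribution and combines the probes of a set, so differences of dim genes are compressed and a shift of all mRNA would be lost. The table had 33297 probe sets, 0 missing values and 0 identical arrays. Platform annotation named 19460 probe sets with 1 gene, 1754 with several (not used) and 12083 with none; 19429 matched the RefSeq table of GRCh38.p14. Probe sets above the 20th percentile of their array on at least 3 of 12 arrays were kept, and the brightest probe set stood for each gene (16939 genes, 693 with several probe sets, of which 0 had calls in opposite directions).

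All 12 arrays entered a single model with a mean for each group, fitted by lmFit and eBayes of limma (version 3.58.1, R version 4.3.3); tests were two-sided and p-values were adjusted by Benjamini-Hochberg across the genes tested; a call needed an adjusted p below 0.05 and a 2-fold difference. Data were simulated for this comparison (16939 genes) with independent noise and few changed genes, unlike the measured data. An adjusted p below 0.05 alone recovered 98% of changes of 1 log2 unit and 100% of changes of 2. The 2-fold limit was not applied there, so recovery under the rule for a call was not measured. Lists were described by counts and medians only. Summaries used pandas 2.3.3 and plots matplotlib 3.10.9, under Python 3.11.15. Promoter windows came from RefSeq.

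Members and lists were chosen with earlier results of these data known. Named were the 15 largest differences each way among called protein-coding genes whose arrays did not overlap, up to 4 called members per list and direction, and a fixed set of lineage, driver and reference genes. Others are named as chosen after their values were seen. Genes of the sex chromosomes that mark sex are not reported. Replicate numbers are shared by the groups: deviations from the group mean correlated at 0.16 to 0.423 between same-numbered A549 and HTB56 arrays and at -0.331 to 0.201 otherwise, and for 5 of the 6 arrays the strongest correlation was with the array of the same number. Replicate 3 gave the highest value (0.423). A549 replicate 1 correlated with HTB56 replicates 1 and 2 at 0.214 and 0.201, and the replicates 2 with each other at 0.16, so numbers 1 and 2 were barely told apart. Over all 4 groups each of the 12 arrays correlated best with an array of its own number. Deviations from a mean sum to 0, which lowers the values between different numbers. The numbers were taken to pair the samples, from the data and not from the labels. The main fit did not use this pairing. Standard errors, adjusted p-values and interactions are thus unpaired except where the block is named. Alternatives were the filter, the probe set rule, median centring, cyclic loess, fitting only the 6 arrays, the replicate block, eBayes with trend and robust, array weights, thresholds and leaving out each array.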

Additional observations from a re-analysis of the deposited data

Results flagged for a closer look

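Of 51 genes that were either among the 30 largest differences or in the fixed set, 13 had a line difference that differed between unselected and selected cells by the limma interaction test (adjusted p below 0.05), as did 92 of all 240 genes named by rule, 812 of the 2359 genes called at least 2-fold and 11.8% of all genes tested. The value given for each is the selected difference minus the unselected one. The granule genes SCG3 (-5.05) and SCG2 (-3.30) had the largest of these 13, followed by SHISA3 (-2.59), the progenitor factor SOX2 (-2.57), the kinase gene CDK14 (-2.11), IFI16 (-1.72), CDKN2B (-1.29) and MTAP (-0.58). These 8 were higher in unselected HTB56, and the difference was smaller after selection. CDKN2B differed by -0.04 in selected cells, its neighbour CDKN2A by 1.07 and MTAP, next to CDKN2A, by 3.48. Epithelial genes lower in unselected HTB56 had smaller differences after selection too: EPCAM (1.44), CDH1 (0.81) and KRT8 (0.48). TM4SF20 (1.29) and MKI67 (0.90) behaved likewise. Those of the 30 largest differences were picked by their unselected values, which enter the test.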

How the results depend on the processing

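The count of 7648 genes at an adjusted p of 0.05 was 4714 (2614 higher, 2100 lower) when tested against a fold of 1.2 in place of no change, and 6705 to 7262 when 1 array was left out. The 2359 genes called at least 2-fold ranged from 2336 to 2406 without 1 array, and the 2101 of selected cells from 2071 to 2195. With the replicate number as a block, as the pairing allows, 9093 genes passed the adjusted p (4923 higher, 4170 lower) and the 2359 were unchanged; apart from NFE2L2 and MDM2 the block changed no call of a named gene. Cyclic loess turned the split of 1212 higher and 1147 lower into 1102 and 1220, so that 47.5% rather than 51.4% of calls were higher. Of 3838 pairs of a named gene and an alternative, 3819 kept direction and side of the adjusted p of 0.05, with no fold limit, 11 passed it newly (EGFR, NFE2L2, MDM2 and GAPDH) and 8 changed sign. Those 8 were KEAP1 at -0.043 after cyclic loess and -0.025 without A0R replicate 3 (-0.025 to 0.192 without 1 array), and NKX2-1 at 0.005 after median centring, 0.051 after cyclic loess, and above 0 without A0R replicate 1 or 2 or H0R replicate 1 or 3 (-0.096 to 0.072 without 1 array). Of 229 named genes called at least 2-fold, 18 were not called so under at least 1 alternative, 5 of them without A0R replicate 2 (ALDH1L2, CAV1, CCNG1, JAG2 and OGDH, at -0.999, 0.93, 0.99, -0.95 and 0.96). The higher count of cell cycle genes was 4 in place of 7 after cyclic loess or without A0R replicate 2. Summed over both directions, the count of called members moved by over 1.5-fold in 11 of 540 pairs of a list and an alternative, in the DNA methylation, ribosomal and leukocyte lists. Counts in 1 direction moved in further lists where they were small. The causes were not tested. Dim signal limits the size of 30 called genes with an A549 mean, and 36 with an HTB56 mean, below the 20th percentile.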

Other observations

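Genes that neighbour each other in the RefSeq order were compared after their values were seen, with no test. On chromosome 21, HSPA13 had 8.92, 9.05 and 9.30 in A549 and 3.31, 3.75 and 3.78 in HTB56. Its next tested neighbours NRIP1 (9.81, 9.78 and 9.73 against 3.81, 4.60 and 4.01) and USP25 (8.82, 8.89 and 8.86 against 3.996, 4.05 and 3.71) had the same pattern, with differences of -5.63 and -4.93. The tested gene after USP25, CXADR, differed by 0.02 (adjusted p = 0.921). In selected cells HSPA13, NRIP1 and USP25 differed by -5.97, -6.38 and -5.58. On chromosome 9, MTAP, CDKN2A and CDKN2B follow one another and were higher in HTB56 by 4.06, 1.69 and 1.26. The next tested neighbours on either side, IFNA8 and DMRTA1, differed by -0.07 and 0.16.

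Chromosome 13 held 61 genes called higher among 255 tested protein-coding genes (23.9%) and 10 called lower. On the other chromosomes the share called higher was between 3.29% (chromosome 16) and 12.8% (chromosome 4). In 3 places 4 consecutive tested genes of chromosome 13 were called higher: CDADC1, CAB39L, SETDB2 and RCBTB1 (median 1.70), VPS36, CKAP2, HNRNPA1L2 and SUGT1 (median 2.18), and MBNL2, RAP2A, IPO5 and FARP1 (median 2.53). Such runs are likelier where a larger share of genes is called. Runs of 4 called the same way were also found on chromosomes 4 and 15 (higher) and 5, 6, 10, 12 and X (lower). DNA copy number was not measured in the arrays used here.

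On chromosome 10 the aldo-keto reductase genes AKR1E2, AKR1C1, AKR1C2 and AKR1C3 follow one another and were all lower in HTB56 (median -4.85). On chromosome 5 the protocadherin genes PCDHA4, PCDHA5, PCDHA6 and PCDHA7 were all lower (median -1.44). Protocadherin alpha transcripts share their last exons, so these 4 are not independent measurements.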
